A study of Mus musculus with 12 samples.

Results

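Gas6 encodes a secreted ligand, and Tyro3, Axl and Mertk encode the 3 receptor tyrosine kinases it binds, known together as the TAM receptors. All probe sets that the platform annotation assigns to one of these 4 genes were followed over mouse liver arrays, which gave 4 of the 8251 genes that had a probe set of their own. Of the 12488 probe sets measured 5 belong to them, 1 each for Gas6, Axl and Mertk and 2 for Tyro3. The genes were chosen by symbol, with their intensities in the 6 groups of these same arrays already known. Their values are therefore a description, and the limma results given for them are no independent test. Gas6 carries glutamates that a vitamin K-dependent enzyme must carboxylate before the protein can bridge phosphatidylserine on dying cells to a TAM receptor on a phagocyte. Active TAM receptors promote the uptake of apoptotic cells and dampen cytokine and Toll-like receptor signals, in part by inducing the feedback inhibitors Socs1 and Socs3. In liver, Mertk is known chiefly from Kupffer cells and other macrophages and from sinusoidal endothelium.

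Total RNA of liver was taken 4 h after the injection, given intraperitoneally, in 6 groups of 2 arrays. Control mice were albumin-cre(-) Socs3(w/fl), with 1 wild-type and 1 floxed Socs3 allele and no Cre, and received saline (phosphate-buffered, PBS in the plots) or the cytokine interleukin-6 (IL-6). Socs3-deleted mice were albumin-cre(+) Socs3(-/fl), with 1 null and 1 floxed allele, and received the same 2 injections. Cre is driven there by the albumin promoter, which is active in hepatocytes, so cells without albumin expression keep the floxed allele beside the null one. Interferon-gamma-/- mice, called Ifng-null here, received saline or interferon-gamma (IFN-γ). Strain, age and sex are not given in the labels, and no label says that the 2 replicates of a group were separate mice, so any p-value measures only the spread between these arrays.

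Each array gave 1 signal intensity per probe set on a linear scale, with a median between 80.6 and 85.7. On the log2 scale Pearson's r between the replicates of a group was 0.977 to 0.987. Socs3 itself, on the brighter of its 2 probe sets, read 124 and 117 in control livers and 76.8 and 74.4 in Socs3-deleted livers after saline, and 167 and 139 against 106 and 84.3 after IL-6, with no overlap between genotypes. Where its probes lie relative to the deleted sequence was not checked. The pancreatic enzyme gene Prss2 read 651 on control saline replicate 2 and 1863 on Socs3-deleted saline replicate 2 but at most 27.3 on the other 10 arrays. Some of the Gas6 and Pros1 differences that use 1 or both of those 2 arrays are also given without them. All 9 hepatocyte markers on the array lay on at least 1 array above 33.0, the 25th percentile of all intensities, which was used as the floor. Fewer cells of a type and less RNA per cell cannot be told apart in these bulk samples.

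The sequences upstream of the Gas6 and Mertk transcription starts are shown. Saline and cytokine arrays of these 2 genes did not overlap in any genotype, unlike those of Axl and Tyro3. Of all probe sets 27.6% did not overlap for IL-6 in control livers, 41.1% for IL-6 in Socs3-deleted livers and 27.2% for IFN-γ. They are the 250 bases before the start in RefSeq, build GRCm38.p6, 5′ to 3′ on the strand of the gene, and capitals mark the GC-box letters GGGCGG on either strand. Gas6 lies on chromosome 8, minus strand, at chr8:13494536-13494785, and Mertk on chromosome 2, plus strand, at chr2:128698665-128698914.
Gas6: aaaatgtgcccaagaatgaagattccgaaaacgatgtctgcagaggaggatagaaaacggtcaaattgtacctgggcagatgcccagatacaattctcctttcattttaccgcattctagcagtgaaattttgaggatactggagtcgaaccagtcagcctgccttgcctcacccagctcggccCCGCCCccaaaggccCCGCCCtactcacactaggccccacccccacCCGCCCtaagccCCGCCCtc
Mertk: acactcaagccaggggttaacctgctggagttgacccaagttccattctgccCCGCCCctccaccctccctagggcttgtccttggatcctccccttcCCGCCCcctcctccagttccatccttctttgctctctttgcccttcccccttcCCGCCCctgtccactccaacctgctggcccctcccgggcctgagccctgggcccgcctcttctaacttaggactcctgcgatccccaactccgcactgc
The GC box occurred 4 times upstream of Gas6, 3 times upstream of Mertk, 3 times upstream of Tyro3 and once upstream of Axl, and 32.7% of the 32851 windows of this length in the table held it. Searched on both strands, the STAT letters TTCNNNGAA, the IL-6 element CTGGGAA, the interferon-stimulated response element (a pair of GAAA units spaced by 2 bases) and the C/EBP letters TTGCNNAAT had no match in any of the 4 windows. They occurred in 7.02%, 9.10%, 2.98% and 2.11% of all windows. GC content was 54.8% for Gas6, 60.0% for Axl, 63.6% for Mertk and 73.2% for Tyro3, where 94.3% of all windows had less.

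Gas6 was the member that varied most. It read 136 and 123 on the control arrays after saline and 302 and 251 after IL-6. Both IL-6 arrays lay above both saline arrays, and the level was 2.13-fold higher, a log2 change of 1.09 ± 0.14 (SE, n = 2 arrays a group). That change ranked 30th from the top among 9641 probe sets tested. After saline alone, Socs3-deleted livers read 248 and 316. This is 2.16-fold above control liver after saline, a log2 difference of 1.11 ± 0.14 (SE), and the arrays of Socs3-deleted livers without cytokine overlapped those of control livers given IL-6. Without the 2 arrays high in Prss2 the log2 difference was 0.87. The IL-6 change in control livers and this genotype difference use the same 2 control saline arrays.

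The highest Gas6 levels of the series, 406 and 386, came from Socs3-deleted livers after IL-6. They exceeded Socs3-deleted liver after saline by 1.42-fold (log2 change 0.50 ± 0.14, SE) and control liver after IL-6 by 1.44-fold (log2 difference 0.52 ± 0.14, SE), and neither pair of groups overlapped. On the log2 scale the IL-6 response of Gas6 was smaller in Socs3-deleted than in control livers by 0.59 ± 0.19 (SE), which did not pass the limma threshold. Without the 2 arrays high in Prss2 that difference came to -0.35, and without Socs3-deleted saline replicate 1 the IL-6 change in Socs3-deleted livers was 0.33. By intensity, the group mean went from 129 to 277 in control and from 282 to 396 in Socs3-deleted livers.

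Ifng-null livers held Gas6 near the lowest level. They read 160.5 and 159.6 after saline and 137 and 144 after IFN-γ. The IFN-γ arrays lay below the saline arrays, with a log2 change of -0.19 ± 0.14 (SE), the opposite sign to both IL-6 changes. Against control livers after saline, Ifng-null livers after saline read 1.24-fold higher (log2 difference 0.31 ± 0.14, SE). Without the arrays high in Prss2 that log2 difference was 0.24. From high to low the 6 groups ran Socs3-deleted with IL-6, Socs3-deleted with saline, control with IL-6, Ifng-null with saline, Ifng-null with IFN-γ and control with saline, and among neighbours only Socs3-deleted with saline and control with IL-6 overlapped.

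**Figure D1:**
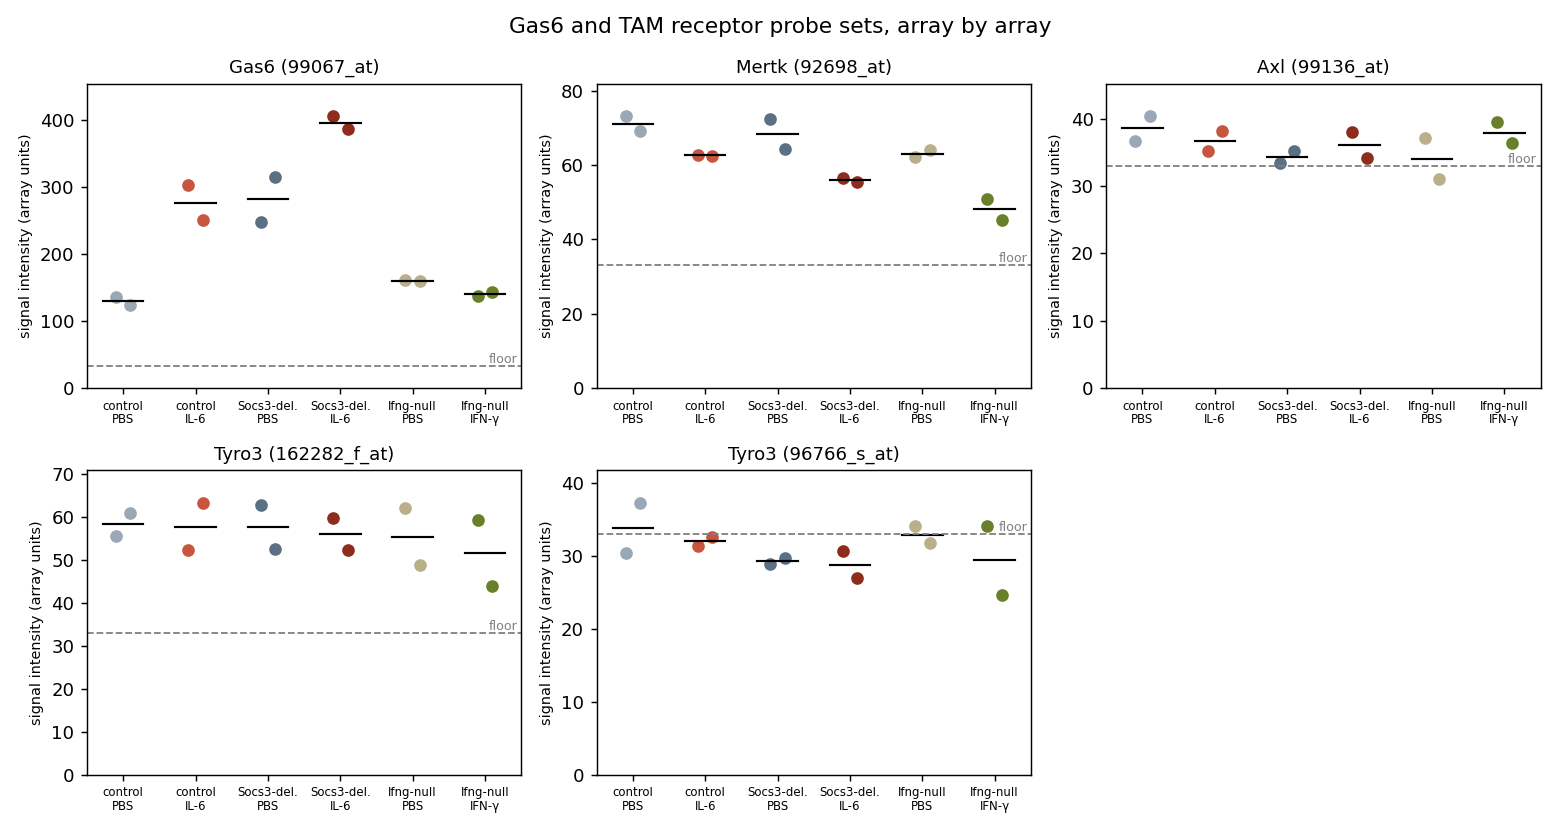
Signal intensity (y axis, linear, from 0) of each probe set on each of the 12 arrays; points are single arrays, short lines group means, and the dashed line the floor of 33.0. Gas6 varies most, with 406 and 386 in Socs3-deleted livers after IL-6 against 136 and 123 in control livers after saline. Its arrays in Socs3-deleted livers after saline and control livers after IL-6 overlap. Axl and the dimmer Tyro3 probe set (s_at) stay near the floor.

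Secreted liver proteins of the acute phase tracked Gas6 most closely. Over the 12 arrays the 3 genes whose log2 values were most like those of Gas6, among 4408 probe sets of other genes compared, were Itih4 (Pearson's r = 0.949), Orm1 (0.932) and Hpx (0.929). Itih4 encodes an inter-alpha-trypsin inhibitor heavy chain, Orm1 the plasma protein orosomucoid and Hpx the haem carrier haemopexin, all secreted by hepatocytes. These r values describe 12 arrays that share 6 treatments and are given without a p. Itih4 read 1587 ± 409 in control livers after saline, 3049 ± 276 after IL-6, 3191 ± 429 in Socs3-deleted livers after saline and 3703 ± 24.9 after IL-6 (SD, n = 2 each). In Ifng-null livers it read 1639 ± 318 after saline and 1807 ± 117 after IFN-γ (SD, n = 2 each). So Itih4 had the same 3 groups above the same 3 groups as Gas6, but after IFN-γ its mean was higher where that of Gas6 was lower.

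**Figure D2:**
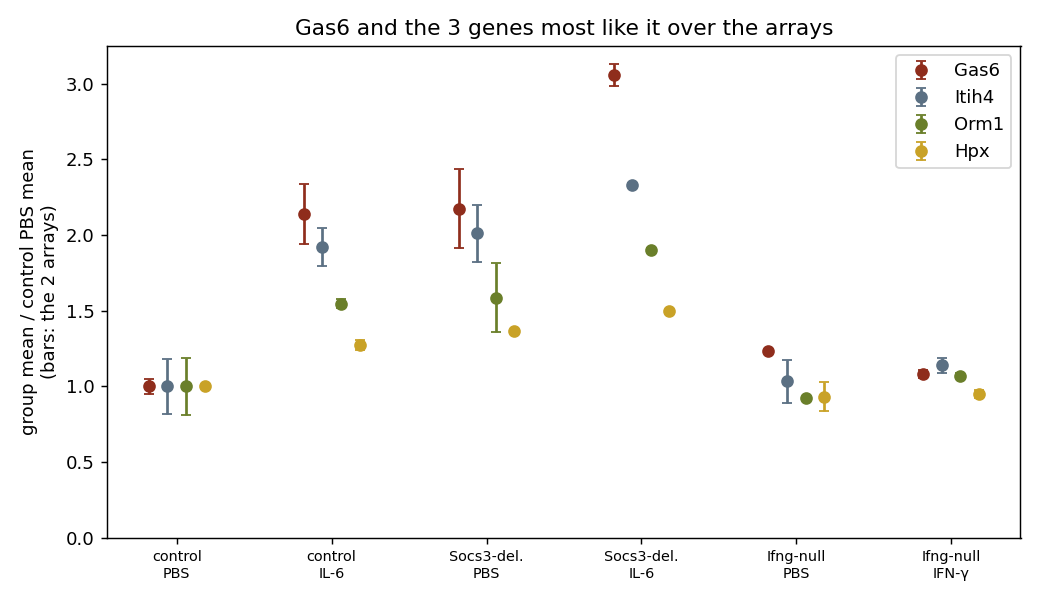
Group means of Gas6, Itih4, Orm1 and Hpx (y axis, linear, as a multiple of each gene's mean in control livers after saline); bars span the 2 arrays of a group. The 4 genes are higher in control livers after IL-6 and in both Socs3-deleted groups. As a multiple of the control saline mean, Gas6 moves over the widest range of the 4. Its group means run from 129 to 396 in intensity.

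Among 18 acute phase genes tested, the median log2 difference was 0.75 after IL-6 in control livers, 0.97 for Socs3-deleted against control livers after saline and 0.11 after IL-6 in Socs3-deleted livers, beside -0.01, -0.02 and 0.00 over all probe sets. Limma called 0, 0 and 1 of the 18, the last being A2m, the gene of alpha-2-macroglobulin (limma adjusted p = 0.0496, a call lost in 13 of 18 alternatives), and 14, 14 and 2 had an unadjusted p under 0.05, beside 2.57%, 4.17% and 10.8% of all probe sets. Gas6 itself gave 1.09, 1.11 and 0.50. Saa2, a serum amyloid A gene, gave 2.73, 2.85 and 0.13, and Fgg, the fibrinogen gamma chain gene, 0.53, 0.56 and 0.10. Lcn2, another of the 18, gave 4.36 and 5.04 in the first 2 comparisons. Its IL-6 responses in Socs3-deleted and control livers differed by -3.405. None of these values passed the limma threshold. After IL-6 in Socs3-deleted livers 13 of the 18 had a positive change and 5 a negative one.

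Mertk read lower after a cytokine in each genotype. It read 73.2 and 69.1 in control livers after saline and 62.65 and 62.5 after IL-6. The 2 groups did not overlap, and the level was 1.14-fold lower (log2 change -0.18 ± 0.10, SE). Socs3-deleted livers gave 72.5 and 64.4 after saline and 56.6 and 55.4 after IL-6. Here too the groups did not overlap, with a level 1.22-fold lower (log2 change -0.29 ± 0.10, SE). The IL-6 changes of the 2 genotypes differed by -0.10 ± 0.14 (SE), less than the error of the difference.

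The lowest Mertk values came from IFN-γ. Ifng-null livers read 62.2 and 64.0 after saline and 50.85 and 45.25 after IFN-γ. All 4 arrays kept apart by injection, and the level was 1.32-fold lower (log2 change -0.40 ± 0.10, SE). After saline the Socs3-deleted and control arrays overlapped (log2 difference -0.06 ± 0.10, SE), and the Ifng-null arrays lay below the control arrays (-0.17 ± 0.10, SE). In order, control and Socs3-deleted livers after saline stood highest and overlapped, Ifng-null livers after saline and control livers after IL-6 came next and overlapped, and Socs3-deleted livers after IL-6 and Ifng-null livers after IFN-γ followed with no overlap.

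Marker genes of the cell types that carry Mertk were summed on the same arrays. The 10 Kupffer cell and macrophage markers on the array, of 12 listed, summed to between 2642 and 3065 in control livers after saline and 2938 and 3111 after IL-6. In Socs3-deleted livers the sums were 3230 to 3970 and 3364 to 4484, and in Ifng-null livers 2818 to 3925 after saline and 2393 to 3825 after IFN-γ, so the sums of saline and cytokine arrays overlapped in every genotype. Gene by gene, 8 of the 10 had a negative log2 change after IFN-γ, with a median of -0.13, and limma called 0. Of the 10, 3 did not overlap, near the 27.2% of all probe sets, so nothing is read from that count. Cd5l, a scavenger receptor family gene of macrophages, gave -0.75 and Adgre1, the gene of a surface protein of mature macrophages, -0.36. After IL-6, 7 of the 10 had a positive change in control and 7 in Socs3-deleted livers. The 9 endothelial markers, of 10 listed, summed to 1578 to 1727 in Ifng-null livers after saline and 1385 to 1428 after IFN-γ, without overlap. Hepatocyte markers, 9 of 10 listed, were also lower there, 46610 to 47010 against 40450 to 42680, and in Socs3-deleted livers 48850 to 50860 after saline against 41270 to 42750 after IL-6. No marker on these 3 lists was at or below the floor on all arrays, and the part of these shifts in the Mertk values was not tested. Kupffer cell markers also moved with Gas6 between genotypes after saline: all 10 were higher in Socs3-deleted than in control livers, with a median log2 difference of 0.33, and limma called 0 of them. Their part in the Gas6 difference was not tested.

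**Figure D3:**
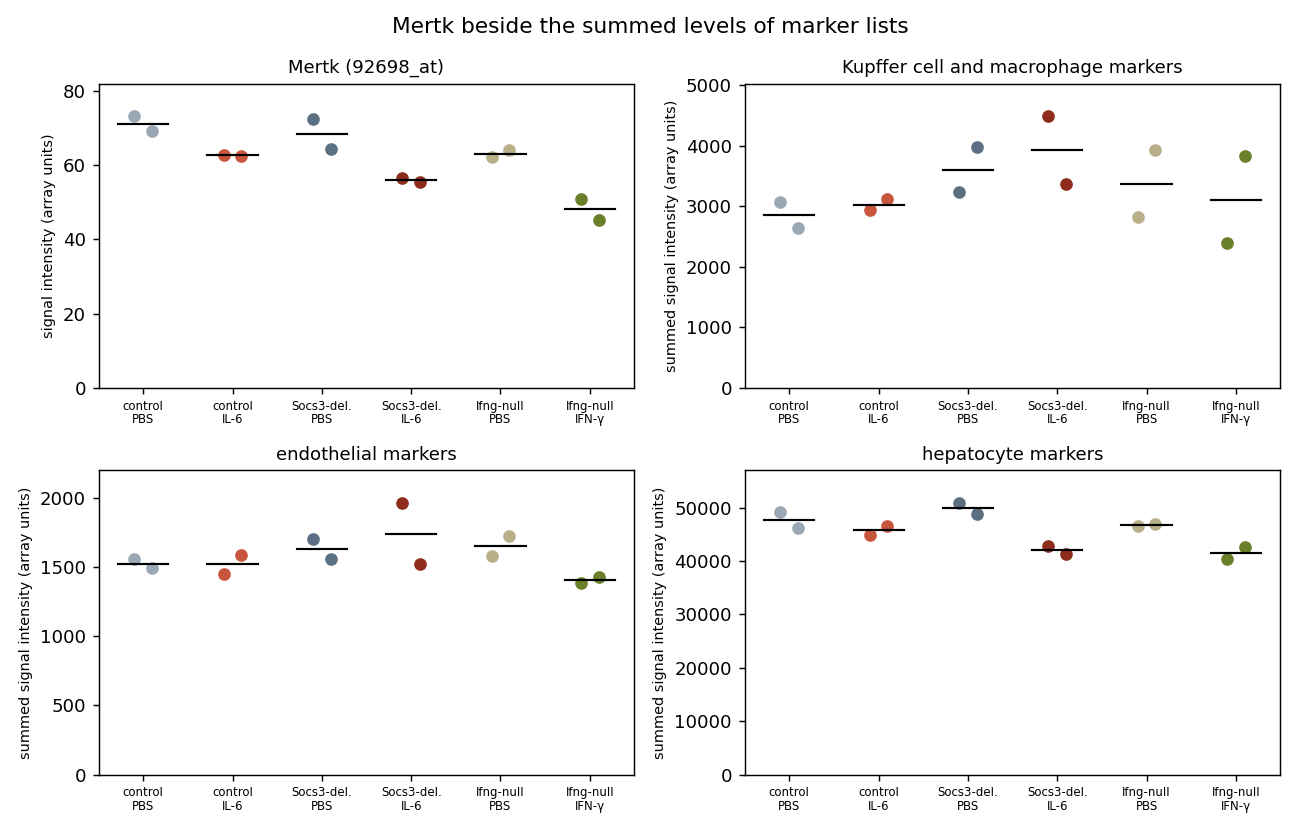
Mertk intensity and the summed intensity of the Kupffer cell and macrophage, endothelial and hepatocyte marker lists (y axes, linear, from 0) on each array; points are single arrays and short lines group means. Mertk is lower after cytokine in each genotype, while the Kupffer cell sums of saline and cytokine arrays overlap in each genotype. After IFN-γ the endothelial sums (1385 to 1428 against 1578 to 1727) and the hepatocyte sums (40450 to 42680 against 46610 to 47010) lie below those after saline.

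Genes whose log2 values were most like those of Mertk over the 12 arrays were BC005537 (Pearson's r = 0.918), Epb41l2 (0.907) and Svil (0.901). Epb41l2 encodes a membrane skeleton protein and Svil the actin-binding protein supervillin. Svil read 426 ± 15.8 in Ifng-null livers after saline and 314 ± 41.0 after IFN-γ (SD, n = 2 each). The Gas6 and Mertk values had an r of -0.02 over the arrays.

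Axl, a receptor known for its high affinity for Gas6, read close to the floor on every array, and the highest of its 12 values was 1.30 times the lowest. Control livers gave 36.75 and 40.4 after saline and 35.2 and 38.2 after IL-6. Socs3-deleted livers gave 33.4 and 35.2 after saline and 38.0 and 34.1 after IL-6. Ifng-null livers gave 37.1 and 31.0 after saline and 39.5 and 36.45 after IFN-γ. Saline and cytokine arrays overlapped in every genotype, and every neighbour in the order of group means overlapped the next. The log2 changes were -0.07 ± 0.11 after IL-6 in control livers, 0.07 ± 0.11 after IL-6 in Socs3-deleted livers and 0.12 ± 0.11 after IFN-γ (SE). Ifng-null saline replicate 2, at 31.0, was the one Axl value below the floor.

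Tyro3, best known as the TAM receptor of the nervous system, was read by 2 probe sets that gave no common pattern (r = 0.36 over 12 arrays). The brighter one, whose name ends in f_at, lay between 43.8 and 63.2 and was above the floor on all 12 arrays. Its saline and cytokine arrays overlapped in every genotype, with log2 changes of -0.02, -0.04 and -0.11 after IL-6 in control livers, IL-6 in Socs3-deleted livers and IFN-γ, each with an SE of 0.18. The dimmer one, ending in s_at, lay between 24.7 and 37.2 and was above the floor on 3 arrays, control saline replicate 2, Ifng-null saline replicate 1 and Ifng-null IFN-γ replicate 1. It passed the filter only through those 3 arrays, and its 4 Socs3-deleted arrays, at 26.9 to 30.6, lay below the floor and give no order. The suffixes of both names mark probe sets whose probes can match related sequences.

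The genes most like Axl and Tyro3 are given for completeness. For Axl they were Atg14, Vmn2r89 and Ift88 (r = 0.830, 0.803 and 0.796), for the brighter Tyro3 probe set Elac2, Upp1 and Map4 (0.930, 0.926 and 0.919) and for the dimmer one Tmpo, Clca1 and Atxn7l1 (0.896, 0.896 and 0.868). Groups of Axl and of both Tyro3 probe sets overlapped their neighbours in level throughout, and these r values come from dim probe sets.

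**Figure D4:**
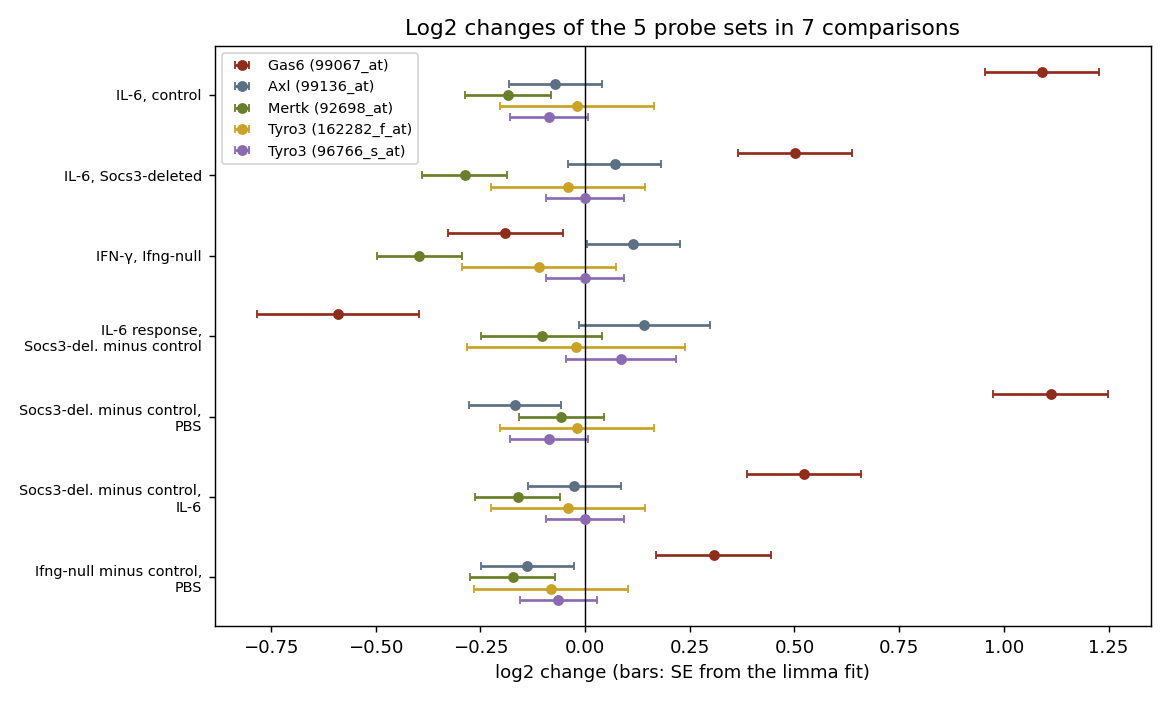
Log2 change (x axis) of the 5 probe sets in 7 comparisons (y axis); bars are the SE from the limma fit. Gas6 lies at 1.09 for IL-6 in control livers and at 1.11 for Socs3-deleted against control livers after saline. Mertk lies below 0 in all 7 comparisons, and the bars of the brighter Tyro3 probe set cross 0 throughout.

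Across all probe sets limma called no member in any of the 7 comparisons at an adjusted p under 0.05. The background share called was 0% for IL-6 in control livers, 1.17% for IL-6 in Socs3-deleted livers, 0.653% for IFN-γ, 0.0415% for the contrast of the 2 IL-6 responses, 0% for Socs3-deleted against control livers after saline, 0.954% for the same after IL-6 and 0% for Ifng-null against control livers after saline. By unadjusted p under 0.05, Gas6 stood out in 5 comparisons and Mertk in 2, while Axl and Tyro3 did so in none. The share of all probe sets with such a p was 2.57% for IL-6 in control livers, 10.8% for IL-6 in Socs3-deleted livers, 6.93% for IFN-γ and 3.94% for the contrast of the IL-6 responses. It was 4.17% for Socs3-deleted against control livers after saline, 9.09% after IL-6 and 3.08% for Ifng-null against control livers after saline. The 5 for Gas6 were the 2 IL-6 responses, their difference and the 2 Socs3 comparisons, and the 2 for Mertk were IL-6 in Socs3-deleted livers and IFN-γ. The members were chosen with earlier results of these arrays known, so these counts describe them and test nothing. Without control IL-6 replicate 2 Gas6 passed for IL-6 in control livers (log2 change 1.23), and without Socs3-deleted saline replicate 1 it passed for Socs3-deleted against control livers after saline (1.29).

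Groups of 2 arrays often fail to overlap, which sets the scale for the separations above. The share of all probe sets whose deposited values, those below the floor included, did not overlap in either direction was 27.6% for IL-6 in control livers, 41.1% for IL-6 in Socs3-deleted livers and 27.2% for IFN-γ, and in each of these 2 of the 5 member probe sets, those of Gas6 and Mertk, did not overlap. For Socs3-deleted against control livers the share was 34.3% after saline, where Gas6 and Axl did not overlap. It was 41.1% after IL-6, where Gas6 and Mertk did not overlap, and 28.2% for Ifng-null against control livers after saline, where Gas6 and Mertk did not. The dimmer Tyro3 probe set is not counted, since its Socs3-deleted arrays were all below the floor. Nothing is read from these counts, since the members were chosen on the same contrasts.

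The other ligands and the enzymes that make Gas6 active were read on the same arrays. Of 7 genes tested, limma called 0 in each comparison. Pros1, which encodes protein S, the other vitamin K-dependent TAM ligand and an anticoagulant cofactor, read 189.6 and 118 in control livers after saline and 257 and 233 in Socs3-deleted livers after saline. The genotypes did not overlap, with a log2 difference of 0.71 ± 0.19 (SE), with an adjusted p of 0.646 by limma. That difference was 0.44 without the 2 arrays high in Prss2 and 0.37 without control saline replicate 2 alone. After IL-6 Pros1 read 171 and 193 in control and 241 and 221 in Socs3-deleted livers (log2 difference 0.34 ± 0.19 SE, adjusted p = 0.72 by limma). Its IL-6 changes, 0.28 in control and -0.09 in Socs3-deleted livers, did not pass, and the first was -0.06 without control saline replicate 2, which alone or with the other array high in Prss2 turned its sign. Ggcx, the gamma-carboxylase gene, had log2 changes of -0.04, -0.20 and -0.17 after IL-6 in control livers, IL-6 in Socs3-deleted livers and IFN-γ. Lgals3, whose product galectin-3 has been reported as a Mertk ligand, read 34.0 and 38.3 in Ifng-null livers after saline and 39.1 and 73.1 after IFN-γ (log2 change 0.57 ± 0.24 SE, adjusted p = 0.679 by limma). Without IFN-γ replicate 2 the change was 0.12, and without replicate 1 it was 1.02 and passed.

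Coagulation factors and other proteins with the same vitamin K-dependent domain gave no calls either. Of 7 tested, 7 had a negative change after IL-6 in Socs3-deleted livers, with a median log2 change of -0.28, and Gas6 had 0.50. In the same comparison 8 of 9 hepatocyte markers were negative, with a median of -0.39, and the part of that shift was not tested. After IL-6 in control livers 5 of the 7 were positive (median 0.05), and 6 of the 7 were positive in Socs3-deleted against control livers after saline (median 0.30). After IL-6 in Socs3-deleted livers the prothrombin gene F2 gave -0.38 and the factor X gene F10 -0.35 (limma adjusted p = 0.655 and 0.768). In Socs3-deleted against control livers after saline they gave 0.33 and 0.30. Among 15 genes of receptor shedding and signal relay 0 were called in any comparison. The sheddase gene Adam17 had log2 changes of -0.12, 0.03 and 0.08 after the 3 injections in the order above, and the adaptor gene Grb2, which binds active TAM receptors, gave 0.36 ± 0.10 after IL-6 in Socs3-deleted livers (SE), with an adjusted p of 0.15 by limma. Of 26 other receptor tyrosine kinases tested limma called 0 in each comparison. Their median log2 change after IFN-γ was -0.14, beside -0.03 over all probe sets and -0.40 for Mertk. Of the 26, 19 had a negative and 7 a positive change after IFN-γ. Without overlap 11 read lower and 1 higher, beside 27.2% of all probe sets in either direction. Fgfr2 gave -0.52 and Met -0.40, so a change of the size seen for Mertk was not particular to it.

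Of 11 genes of TAM-linked dampening of innate signals 0 passed. Socs1, a feedback inhibitor induced by interferons and by TAM receptors, read 153 and 157 in Socs3-deleted livers after saline and 219 and 2149.6 after IL-6, a log2 change of 2.15 ± 0.78 (SE), with an adjusted p of 0.326 by limma. Without IL-6 replicate 2 it was 0.50, and without replicate 1 it was 3.79 and passed. Ifnar1, the interferon receptor subunit that TAM receptors engage, had log2 changes of 0.02, 0.00 and -0.11 after the 3 injections. Of 22 interferon-inducible genes 16 rose after IFN-γ and 16 after IL-6 in Socs3-deleted livers. The latter count was 10 without Socs3-deleted IL-6 replicate 1, 7 without its replicate 2 and 8 without Socs3-deleted saline replicate 2, the array with the highest Prss2, and 6 without both arrays high in Prss2. Without any filter on dim probe sets the 2 counts were 4 and 6.

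Among 18 other genes of apoptotic cell uptake, 2 rose after IL-6 in Socs3-deleted livers. Cd14, the gene of a lipopolysaccharide co-receptor that also tethers apoptotic cells, rose by 1.34 ± 0.13 on the log2 scale (SE), with an adjusted p of 0.00121 by limma. Abca1, the gene of a cholesterol exporter active in phagocytes and hepatocytes, rose from 466 ± 5.33 to 970 ± 114 (SD, n = 2), a log2 change of 1.05 ± 0.15 (SE), with an adjusted p of 0.0113 by limma. Its second probe set gave 0.45 and did not pass. Cd14 kept its call in all 18 alternatives and Abca1 in 13 of 18, the exceptions being no filter and the loss of Socs3-deleted IL-6 replicate 2 or of either Socs3-deleted saline array, alone or with the other array high in Prss2. Cd14 was also higher in Socs3-deleted than in control livers after IL-6, by 1.44 ± 0.13 (SE), with an adjusted p of 0.000868 by limma. Mfge8, the gene of another bridging protein for apoptotic cells, read between 468 and 538 on all 12 arrays. Its 2 lowest values, 468 and 473, were those of Socs3-deleted livers after IL-6, without overlap with the other 10, and the log2 change of -0.10 ± 0.09 did not pass (adjusted p = 0.865 by limma).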

How the data were processed

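The deposited table holds the authors' linear signal intensity for each probe set on 12 Affymetrix mouse liver arrays. The sources used here do not give how the authors scaled this intensity; trimmed means per array differed by at most 1.097-fold, so values were used as deposited. Of 12488 probe sets 66 controls were left out. Intensities were raised to a floor of 33.0, the 25th percentile, and log2 was taken; 9641 probe sets above the floor on at least 2 arrays were tested. Limma 3.58.1 in R 4.3.3 fitted 6 group means to all 12 arrays (eBayes, two-sided, Benjamini-Hochberg over 9641, threshold 0.05), and the code was tested on simulated data. Folds are of mean log2 values. Of 10833 probe sets with 1 symbol the brightest stood for a gene in lists. Named genes are the members, the 3 genes most like each (log2 span of at least 0.5), and genes from the lists, with Socs3 and Prss2 as checks. The rule for a list allowed up to 4 called members or otherwise up to 2. Not every gene it selects is named, among them the called hepatocyte marker Hpd and the called interferon-inducible genes. Fgg, Adam17, Ifnar1 and Mfge8 were chosen after their values were seen. Members and lists were chosen with earlier results of these data known. Alternatives were quantile normalization, other floors, no filter, a replicate block and left-out arrays. RefSeq supplied upstream sequences.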

Additional observations from a re-analysis of the deposited data

Results flagged for a closer look

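The log2 changes of Gas6 had opposite signs under IL-6 and under IFN-γ, though none of them passed the limma threshold. Both IL-6 arrays of control livers lay above both saline arrays, while both IFN-γ arrays of Ifng-null livers lay below theirs, and the log2 changes of 1.09 and -0.19 were 1.28 apart. The IL-6 change in Socs3-deleted livers, 0.50, was 0.692 from the IFN-γ change, again with every array on opposite sides. The IFN-γ change had an SE of 0.14. Among all probe sets 27.6%, 41.1% and 27.2% did not overlap for IL-6 in control livers, IL-6 in Socs3-deleted livers and IFN-γ. Cytokine and genotype differ together between these comparisons, and the differences between them were not tested.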

How the results depend on the processing

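Gas6 kept its sign in all 18 alternatives for both IL-6 changes, for IFN-γ and for both Socs3 comparisons. Mertk read lower after each cytokine in all 17 alternatives in which it was tested. In each of these comparisons the 2 groups did not overlap, so leaving out arrays could not change the sign. Those settings therefore tell only how far the size of a change moves. The Gas6 log2 change after IL-6 ranged from 0.957 to 1.23 in control and from 0.326 to 0.677 in Socs3-deleted livers, and its Socs3 difference after saline from 0.868 to 1.29. Both ends in Socs3-deleted livers came from leaving out a saline array, replicate 1 for the lowest and replicate 2 for the highest. Leaving out single arrays gave 0 to 1 member calls for IL-6 in control livers and for Socs3-deleted against control livers after saline, Gas6 in each case, and 0 in the other 5 comparisons. Calls over all probe sets then ranged from 0 to 9 for IL-6 in control livers (0 with all arrays), 37 to 123 for IL-6 in Socs3-deleted livers (113), 20 to 62 for IFN-γ (63), 2 to 18 for the contrast of the IL-6 responses (4), 0 to 7 for Socs3-deleted against control livers after saline (0) and 16 to 105 after IL-6 (92). With no filter on dim probe sets the calls were 28 for IL-6 in Socs3-deleted livers, 8 for IFN-γ and 22 for Socs3-deleted against control livers after IL-6. Without the arrays high in Prss2 they were 20, 33 and 46, and 0 for the contrast of the IL-6 responses, which had 8 with a floor at the 50th percentile. The causes were not tested.

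Same-numbered replicates deviated from their group means with correlations from -0.112 to 0.665, so the numbers were not taken as pairs. With the replicate block the calls were 123 for IL-6 in Socs3-deleted livers, 60 for IFN-γ, 6 for the contrast of the IL-6 responses, 104 for Socs3-deleted against control livers after IL-6 and 0 in the other 3, with 0 member calls throughout. With the Ifng-null numbers crossed, a pairing chosen after seeing the data, Ifng-null against control livers gave 0 calls. The Pros1 change after IL-6 in control livers turned from 0.28 to -0.0606 without both arrays high in Prss2, and leaving out single arrays gave -0.0606 to 0.623, the ends being control saline replicate 2 and replicate 1. The alternatives for A2m, Cd14, Abca1, Pros1, Lgals3, Socs1 and the interferon-inducible genes were also added after seeing the data. Having 2 arrays a group limits the precision, and intensities near the floor bound what Axl and Tyro3 can show.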
